A study of Mus musculus with 22 samples.

Results

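The 9 genes described here encode the integrin chains through which T cells attach to vessel walls and tissue. They were taken by gene name from the 55291 gene names of each RNA-seq library, and all 9 were listed. They comprise 5 alpha chains (Itga4, Itgal, Itgav, Itga1 and Itgae) and 4 beta chains (Itgb1, Itgb2, Itgb3 and Itgb7). The study is a mouse series on memory Th2 cells, CD4 helper cells that make type 2 cytokines. Its 22 samples include 8 RNA-seq libraries, 2 for each of 4 groups, and 14 ATAC-seq samples, which were left out. The RNA groups cross the place of recovery, tissue or circulation, with the origin of the cells. Cells of the ex-TRM groups descend from tissue-resident memory cells, and those of the ex-Tcirc groups from circulating memory cells. All 8 RNA libraries are labelled as lung CD4+ T cells from female animals 6 to 10 weeks old with Balb/c as host strain, although the protocol places circulating ex-TRM cells in blood.

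Per the protocols, the recipients of the series as a whole were C57BL/6 (Ly5.2) mice or BALB/c-nu/nu mice, a strain that lacks a thymus and thus most T cells of its own. They were given OVA through the nose to start allergic airway inflammation and then effector Th2 cells by vein. The donors were mice with a transgenic T cell receptor, OT-II creERT2 or DO11.10. Tamoxifen was given to switch on Cre, OVA was given again, and cells were sorted at day 49 or day 71 after transfer, with CD69 and the congenic CD45 markers among the sorting markers. Neither the experiment, of these 2, nor the animal behind each RNA library is stated. Group differences can therefore include differences between experiments, and each p-value reflects the spread among the 7 libraries alone, and that spread may be technical. Circulating ex-TRM replicate 1 was nearly empty, with 917 names above 0 and all 9 chains listed at 0. It was treated as missing, which left 4 tissue and 3 circulating libraries and a circulating ex-TRM group of 1 library.

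An integrin is a pair of 1 alpha and 1 beta chain that reaches the cell surface only once paired. Itga4 pairs with Itgb1 to form VLA-4, the receptor for VCAM-1 and fibronectin, or with Itgb7 to form the receptor for the mucosal vessel ligand MAdCAM-1. Itgal pairs with Itgb2 to form LFA-1, which binds ICAM-1 during arrest on endothelium and contact with antigen-presenting cells. The remaining alpha chains are linked to residence in tissue. Itgae pairs with Itgb7 and binds E-cadherin on epithelium, Itga1 pairs with Itgb1 and binds collagen, and Itgav pairs with Itgb3 and other beta chains and binds matrix proteins such as vitronectin.

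The 250 bases before the transcription start are printed for 4 chains, Itga4 with its 2 possible partners Itgb1 and Itgb7, whose mRNA reached its highest values in circulating libraries, and Itga1, whose mRNA was highest in tissue. RefSeq promoters on build GRCm38.p6 matched 5 of the 9 chains. Capitals mark CACCC, the core of the box bound by Krüppel-like factors, and TGTGGT, the core bound by Runx factors, each on either strand, and every sequence runs 5′ to 3′ towards the gene.
Itga4, chr2:79255176-79255425, plus strand: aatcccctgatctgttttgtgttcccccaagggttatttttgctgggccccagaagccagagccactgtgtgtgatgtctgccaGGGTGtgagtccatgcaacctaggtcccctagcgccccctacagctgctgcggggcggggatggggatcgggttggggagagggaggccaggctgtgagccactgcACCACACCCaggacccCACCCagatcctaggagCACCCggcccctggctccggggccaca
Itgb7, chr15:102231936-102232185, minus strand: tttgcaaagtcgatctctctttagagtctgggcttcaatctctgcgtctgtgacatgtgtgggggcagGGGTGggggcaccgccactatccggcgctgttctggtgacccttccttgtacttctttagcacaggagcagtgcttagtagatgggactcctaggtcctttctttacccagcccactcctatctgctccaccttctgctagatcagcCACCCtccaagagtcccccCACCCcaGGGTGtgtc
Itgb1, chr8:128685404-128685653, plus strand: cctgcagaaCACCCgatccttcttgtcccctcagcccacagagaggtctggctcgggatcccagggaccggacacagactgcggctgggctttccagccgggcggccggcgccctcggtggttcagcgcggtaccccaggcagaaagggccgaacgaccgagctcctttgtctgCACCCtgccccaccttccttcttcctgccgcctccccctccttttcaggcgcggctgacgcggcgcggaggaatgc
Itga1, chr13:115101965-115102214, minus strand: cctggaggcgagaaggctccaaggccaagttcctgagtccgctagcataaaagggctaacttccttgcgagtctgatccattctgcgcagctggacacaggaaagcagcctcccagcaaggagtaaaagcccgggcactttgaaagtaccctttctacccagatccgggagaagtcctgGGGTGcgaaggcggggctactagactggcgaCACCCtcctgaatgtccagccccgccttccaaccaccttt

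CACCC occurred 4 times in the Itga4 window and 4 times in the Itgb7 window, against 2 times each for Itgb1 and Itga1. TGTGGT occurred once among these windows, in Itga4, as its reverse complement ACCACA overlapping the first of a run of 3 forward CACCC matches. CACCC was found in 51.3% and TGTGGT in 14.2% of 27025 promoter windows of the same length. Windows with at least 2 CACCC matches made 20.7% of them, and windows with at least 4 made 2.12%. A match is a description of the letters and not of binding. The Itgb7 window lies inside the outer bounds that RefSeq gives for its gene.

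The libraries differed in how many genes they detected. The 4 tissue libraries listed 30488 to 37894 names above 0, circulating ex-TRM replicate 2 listed 29688, and circulating ex-Tcirc replicates 1 and 2 listed 12785 and 7042. Among the 902 genes with a tissue mean of 30 to 60 FPKM (a fragment count corrected for gene length and library size), circulating ex-Tcirc replicate 1 listed 14.2% at 0 and replicate 2 listed 52.5%, against 0.222% for circulating ex-TRM replicate 2. A 0 in the circulating ex-Tcirc libraries is therefore given as listed at 0, not as absence of the transcript. Of the 9 chains, 6 were at 0 in circulating ex-Tcirc replicate 2, 2 in replicate 1 and 0 in circulating ex-TRM replicate 2. The T cell label held in all 7 libraries, in which 6 T cell markers summed to 1137 to 1568 FPKM with no more than 1 of them, Cd3d, at 0. CD8 T cell markers summed to at most 2.99 FPKM.

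**Figure D1:**
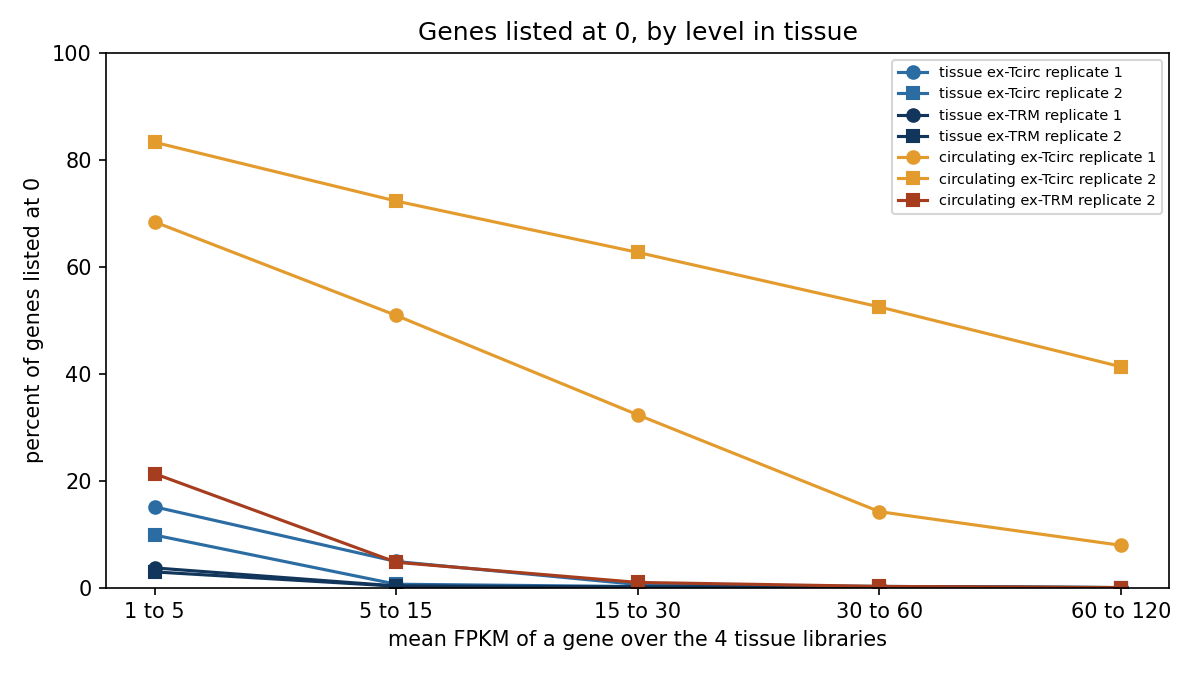
Percent of genes listed at 0 in each of the 7 libraries (y axis), by band of mean FPKM over the 4 tissue libraries (x axis); circles are replicate 1 and squares replicate 2. At a tissue mean of 30 to 60 FPKM, circulating ex-Tcirc replicates 1 and 2 list 14.2% and 52.5% of genes at 0, and circulating ex-TRM replicate 2 lists 0.222%.

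Itga4, the alpha chain of VLA-4 and of the MAdCAM-1 receptor (gene at chr2:79255426-79333114), had higher values in circulating than in tissue cells. In replicate order, its FPKM was 38.0 and 46.5 (tissue ex-Tcirc), 37.6 and 34.6 (tissue ex-TRM), 101 and 164 (circulating ex-Tcirc) and 106 (circulating ex-TRM replicate 2). All 3 circulating libraries lay above all 4 tissue libraries, with 2.59, 4.18 and 2.70 times the tissue mean of 39.2 ± 5.11 FPKM (SD, n = 4). Itga4 was the only 1 of 6 chains with a mean of at least 20 FPKM for which this held, and 11.8% of all 2656 genes at that level showed the same order. In cells sorted to a common type, more transcript per cell and a larger share of cells with the transcript cannot be told apart.

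The location difference, averaged over the 2 origins, was tested with limma on log2(FPKM + 1) over the 7 libraries and adjusted over all 2656 genes with a mean of at least 20 FPKM. Itga4 had a log2 difference of -1.56 ± 0.28 (SE, tissue minus circulating) and a limma adjusted p of 0.0549, just over the threshold of 0.05. With the minimum lowered to 1 FPKM, over 23001 genes, the same difference had a limma adjusted p of 0.0417. Over the alternatives the adjusted p ran from 0.000887 without circulating ex-Tcirc replicate 1 to 0.436 without tissue ex-TRM replicate 1, leaving aside the fit with the nearly empty library (0.968). The log2 difference stayed between -1.76 and -1.36 in every fit over the 7 or 6 libraries used here. It was -1.59 ± 0.35 (limma adjusted p = 0.0857) within ex-Tcirc and -1.52 ± 0.43 (limma adjusted p = 1) within ex-TRM. The difference between these 2 effects was 0.07 ± 0.56 (limma adjusted p = 0.956).

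Scaled to the T cell markers of the same library, Itga4 gave the same order. As a percent of the summed T cell marker FPKM, it stood at 3.34% and 3.23% (tissue ex-Tcirc) and 2.40% and 2.27% (tissue ex-TRM). The circulating libraries were all above these, with 7.95% and 12.7% for ex-Tcirc and 6.97% for ex-TRM. Cerkl, which overlaps Itga4, was listed at 0 in the 3 circulating libraries and reached no more than 2.45 FPKM in tissue.

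**Figure D2:**
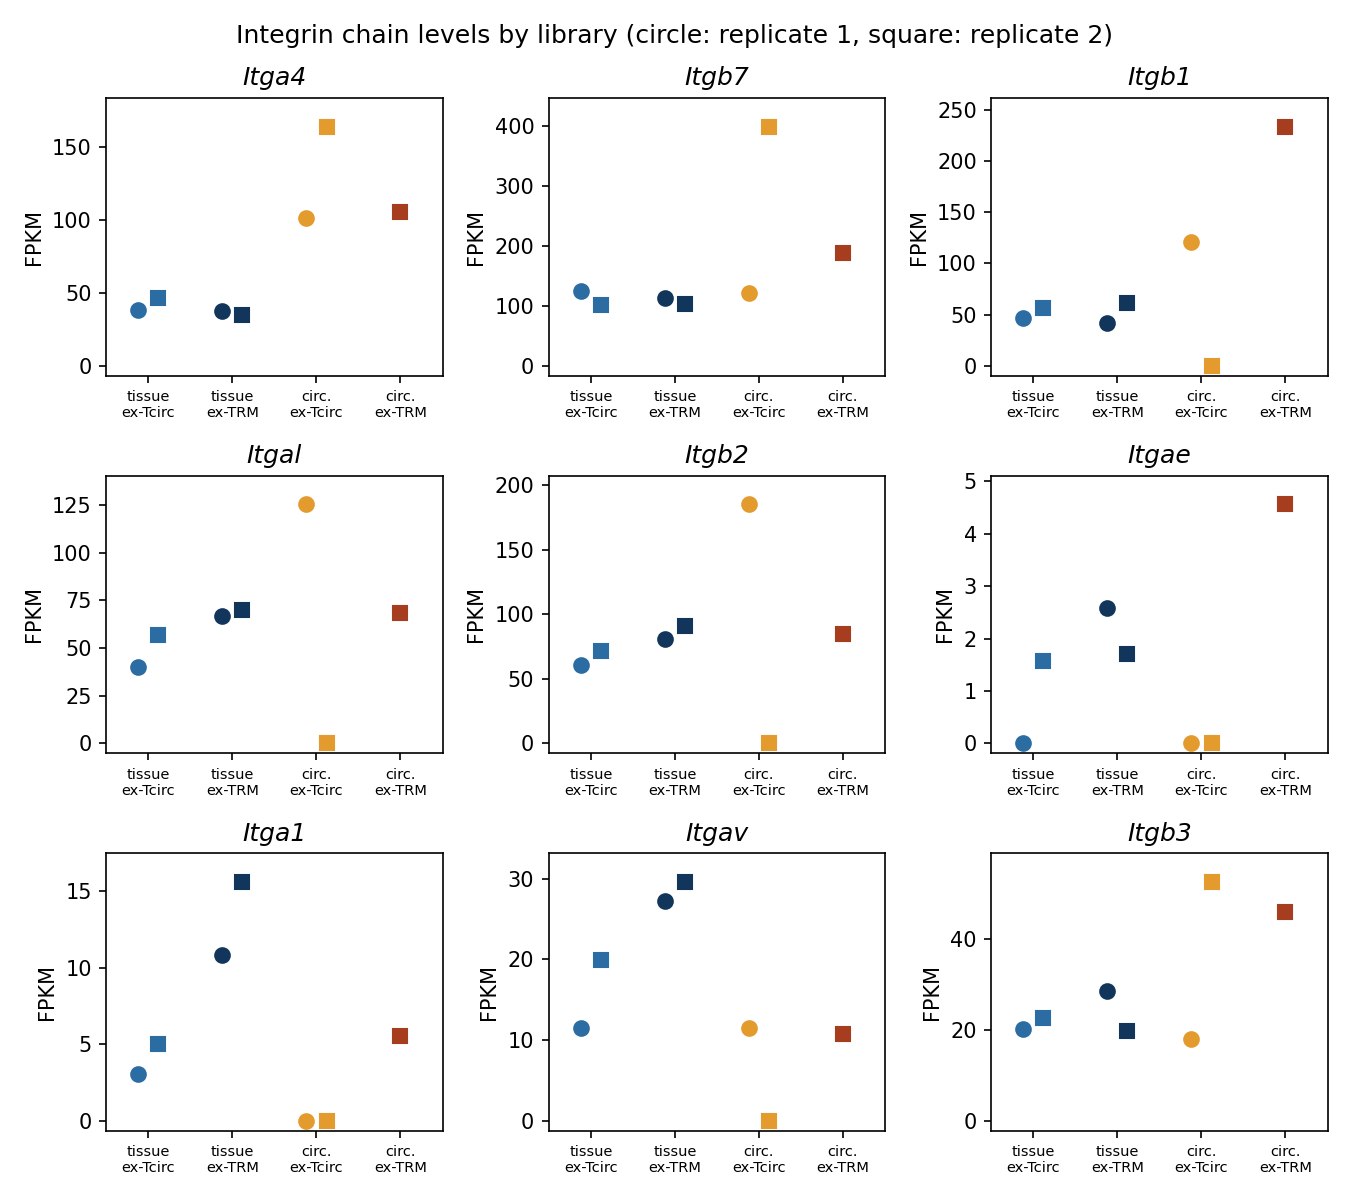
FPKM of each of the 9 chains (y axis, starting near 0) in the 7 libraries used, by group (x axis, circ. for circulating); circles are replicate 1 and squares replicate 2. Itga4 is above 100 FPKM in all 3 circulating libraries and below 50 FPKM in the 4 tissue libraries, whereas Itgb1, Itgal, Itgb2 and Itgav are at 0 in circulating ex-Tcirc replicate 2 only.

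Itgb7, the beta chain of the mucosal homing integrins (chr15:102215994-102233405), was the most abundant chain in tissue and on average over the 7 libraries. Its FPKM was 125 and 101 (tissue ex-Tcirc), 114 and 103 (tissue ex-TRM), 122 and 399 (circulating ex-Tcirc) and 189 (circulating ex-TRM replicate 2). The tissue libraries lay close together, at 111 ± 11.2 FPKM (SD, n = 4). Circulating ex-Tcirc replicate 1 fell among them while the other circulating libraries were higher. The log2 difference was -0.88 ± 0.50 (limma adjusted p = 0.471).

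Itgb1, the beta chain of VLA-4 and of the collagen receptor with Itga1 (chr8:128685654-128733579), split the circulating libraries. Its FPKM was 47.2 and 56.9 (tissue ex-Tcirc), 42.0 and 61.4 (tissue ex-TRM), 121 and 0 (circulating ex-Tcirc) and 233 (circulating ex-TRM replicate 2). The 2 circulating libraries with a value were 2.33 and 4.5 times the tissue mean of 51.9 ± 8.88 FPKM (SD, n = 4). Itga4 and Itgb1 were thus the 2 of 6 chains for which circulating ex-Tcirc replicate 1 and circulating ex-TRM replicate 2 lay above all tissue libraries, an order shown by 29.1% of all genes at that level. With the 0 included, the log2 difference of Itgb1 was 0.04 ± 1.90 (limma adjusted p = 0.990).

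The balance of the partners of Itga4 also differed between libraries. The ratio of Itgb7 to Itgb1 was 2.66 and 1.78 (tissue ex-Tcirc) and 2.71 and 1.68 (tissue ex-TRM). Circulating ex-Tcirc replicate 1 had a ratio of 1.01 and circulating ex-TRM replicate 2 a ratio of 0.809, both below all 4 tissue libraries. In circulating ex-Tcirc replicate 2 no ratio exists, since Itgb1 was at 0. These ratios do not depend on how a library was scaled and were not tested.

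Itgal and Itgb2, the chains of LFA-1 (chr7:127296139-127335137 and chr10:77530329-77565708), were close to each other in pattern. Itgal had FPKM values of 40.3 and 56.9 (tissue ex-Tcirc), 66.7 and 70.2 (tissue ex-TRM), 125 and 0 (circulating ex-Tcirc) and 68.6 (circulating ex-TRM replicate 2). Itgb2 had 60.7 and 71.6, 80.9 and 91.1, 185 and 0, and 84.7 FPKM in the same order of groups. For both chains the ex-TRM library from circulation lay within or next to the 2 tissue ex-TRM values, and circulating ex-Tcirc replicate 1 was the highest library. The ratio of Itgal to Itgb2 stayed between 0.663 and 0.825 in the 6 libraries in which both were listed. Tissue and circulation differed by 1.06 ± 1.91 for Itgal and 1.16 ± 2.06 for Itgb2 on the log2 scale (limma adjusted p = 0.788 for both).

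Itgb2 is also the beta chain of myeloid integrins, and myeloid transcripts were highest in the library in which Itgb2 was highest. The 7 macrophage and monocyte markers summed to 685 FPKM in circulating ex-Tcirc replicate 1, of which Lyz2 made 646 FPKM, to 300 FPKM in replicate 2 and to 41.4 to 148 FPKM in the other 5 libraries. Of these 7, Adgre1, Marco and Itgam were listed at 0 for both circulating ex-Tcirc replicates, Cd68 and Mrc1 also for replicate 2, and Marco for all 7 libraries. Epithelial markers reached 495 FPKM in the same library, with Sftpc at 421 FPKM, and 0 to 82.1 FPKM elsewhere. Neutrophil markers were at 0 in every library. The part of these cells in the Itgal and Itgb2 values was not tested.

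Since circulating ex-Tcirc replicate 2 held 6 of the 9 chains at 0, the location difference was also taken without it, with the spread then coming from the 4 tissue libraries alone. In that fit 4 of the 6 chains were lower in tissue, where 20.1% of all 2777 genes tested were called lower. Itga4 changed by -1.39 ± 0.17 (limma adjusted p = 0.0029), Itgb1 by -1.69 ± 0.22 (limma adjusted p = 0.0038), Itgb2 by -0.73 ± 0.17 (limma adjusted p = 0.0235) and Itgal by -0.69 ± 0.20 (limma adjusted p = 0.0436). Itgb7 had -0.46 ± 0.18 and Itgb3 -0.34 ± 0.20, which did not pass. Without circulating ex-Tcirc replicate 1 instead, all 6 passed, 3 higher in tissue (Itgal, Itgb1 and Itgb2, by 2.80, 1.77 and 3.04) and 3 lower (Itga4, Itgb7 and Itgb3, by -1.73, -1.30 and -1.09), with 52% of all 2678 genes called higher and 17.5% lower. Itgb1, Itgal and Itgb2 thus changed direction with the circulating ex-Tcirc library that was kept, and Itga4, Itgb7 and Itgb3 did not. With all 7 libraries 0 of 6 chains passed, against 7.34% of all genes, and Itga4 was the 1 chain with an unadjusted limma p under 0.05.

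**Figure D3:**
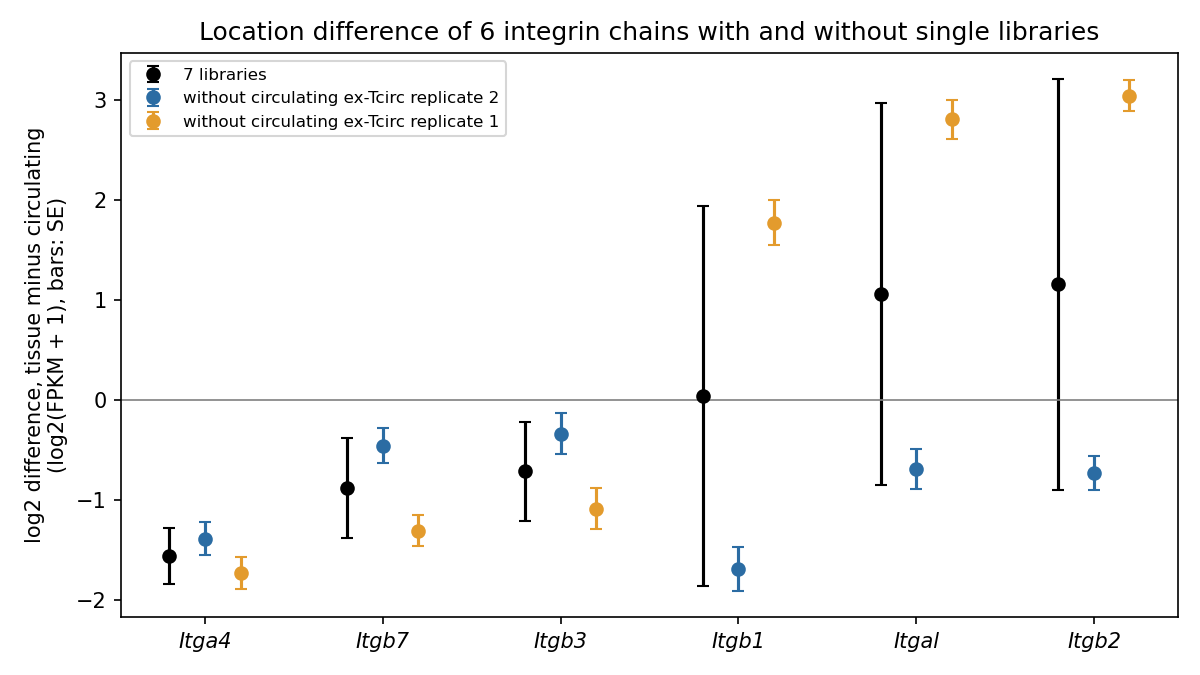
Log2 difference of 6 chains, tissue minus circulating averaged over the origins (y axis, log2(FPKM + 1), bars are the SE from limma), over 7 libraries and without either circulating ex-Tcirc library. Itga4 stays between -1.73 and -1.39, while Itgb1, Itgal and Itgb2 are below 0 without replicate 2 and above 0 without replicate 1.

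Within ex-Tcirc cells, 0 of the 6 chains passed between tissue and circulation, where 9.11% of all genes did (1 chain, Itga4, at an unadjusted limma p under 0.05). Within ex-TRM cells, where circulation was 1 library whose spread is assumed to equal that of the other groups, 0 chains and 0% of all genes passed, with 87 genes at an unadjusted p under 0.05. Itgb1 had the largest difference there, -2.18 ± 2.94, and without circulating ex-Tcirc replicate 2 the same difference had an SE of 0.31. Itga4 had a smaller difference with a smaller SE over the 7 libraries, -1.52 ± 0.43. Whether the location difference itself differed between origins was tested as well, and 0 of 6 chains passed against 0.151% of all genes. For Itgb1 this difference was -4.43 ± 3.80 (limma adjusted p = 0.841). Without circulating ex-Tcirc replicate 2, Itgb2 was the 1 chain that passed, at 1.49 ± 0.34 (limma adjusted p = 0.0436), where 2.27% of genes were called in that direction. Without circulating ex-Tcirc replicate 1 instead, 4 of 6 chains passed. Itgal, Itgb1 and Itgb2 then had -5.61, -7.90 and -6.05, beside 52.9% of genes called in that direction, and Itgb7 had 1.02, beside 10.7%. Itgb2 thus passed in opposite directions with the circulating ex-Tcirc library that was kept.

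Itgb3, the partner of Itgav (chr11:104608000-104670476), had FPKM values of 20.3 and 22.6 (tissue ex-Tcirc), 28.4 and 19.8 (tissue ex-TRM), 17.9 and 52.5 (circulating ex-Tcirc) and 45.8 (circulating ex-TRM replicate 2). Circulating ex-Tcirc replicate 1 was the lowest of the 7 libraries and the other circulating libraries were the highest, so the locations overlapped. The log2 difference was -0.71 ± 0.49 (limma adjusted p = 0.575). Itgb3 is abundant in platelets, whose 5 markers summed to 2.23 to 15.8 FPKM and were lowest in circulating ex-Tcirc, with Ppbp at 0 in all libraries and Pf4 at 0 in the 3 circulating libraries.

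Itgav (chr2:83722303-83806917) ran the other way from Itga4. Its FPKM was 11.5 and 19.97 (tissue ex-Tcirc), 27.3 and 29.6 (tissue ex-TRM), 11.5 and 0 (circulating ex-Tcirc) and 10.7 (circulating ex-TRM replicate 2). It was the 1 of 9 chains for which all 4 tissue libraries lay above all 3 circulating libraries, although the nearest pair differed by under 0.01 FPKM, and 12.8% of genes with a mean of at least 1 FPKM showed this order. In the fit with a minimum of 1 FPKM, its log2 difference was 1.76 ± 1.01 (limma adjusted p = 0.386). Dnmt3l-ps1, which overlaps Itgav, spanned 3.71 to 12.6 FPKM in the tissue libraries. In circulation it had 3.22 and 18.9 FPKM (ex-Tcirc) and 3.54 FPKM (ex-TRM), an order that differs from that of Itgav.

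Itga1, the collagen-binding chain (chr13:114958079-115101964), had FPKM values of 3.06 and 5.05 (tissue ex-Tcirc), 10.8 and 15.6 (tissue ex-TRM), 0 and 0 (circulating ex-Tcirc) and 5.57 (circulating ex-TRM replicate 2). The last of these lay above both tissue ex-Tcirc libraries and below both tissue ex-TRM libraries. In the fit with a minimum of 1 FPKM, Itga1 was higher in tissue by 1.70 ± 0.29 (limma adjusted p = 0.0265), beside 14.8% of all genes called higher in tissue, and Itga4 was lower, beside 0.361% called lower. These were the 2 of 9 chains called in that fit. Within ex-Tcirc, Itga1 was higher by 2.31 ± 0.37 (limma adjusted p = 0.0137), beside 24.4% of all genes, as the 1 of 9 chains called. At a tissue mean of 5 to 15 FPKM, 50.9% and 72.3% of genes were listed at 0 in circulating ex-Tcirc replicates 1 and 2, and a pair of zeros adds no spread. Pelo, which overlaps Itga1, reached 7.84 FPKM in tissue and was listed at 0 in circulation and in tissue ex-Tcirc replicate 1. The averaged call for Itga1 was lost without tissue ex-TRM replicate 1 (limma adjusted p = 0.107) or replicate 2 (limma adjusted p = 0.122).

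Itgae, the CD103 chain (chr11:73090505-73147449), was the least abundant of the 9. Its FPKM was 0 and 1.58 (tissue ex-Tcirc), 2.58 and 1.70 (tissue ex-TRM), 0 and 0 (circulating ex-Tcirc) and 4.57 (circulating ex-TRM replicate 2). The highest value thus came from a circulating library, and Haspin, which overlaps Itgae, had 2.2 to 5.68 FPKM over the 7 libraries. The log2 difference between locations was -0.08 ± 0.44 (limma adjusted p = 0.941), and its sign changed with the pseudocount and with the scaling.

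Between the 2 origins within tissue, the alpha chains of retention had higher values in both ex-TRM libraries. Itga1 averaged 13.2 ± 3.39 FPKM in tissue ex-TRM against 4.05 ± 1.40 in tissue ex-Tcirc (SD, n = 2 each), a ratio of 3.26. Itgav averaged 28.4 ± 1.68 against 15.7 ± 6.00 FPKM, a ratio of 1.81. The LFA-1 chains differed by less, with ratios of 1.41 for Itgal and 1.30 for Itgb2, and Itga4 had a ratio of 0.855. Counting all 9 chains, both tissue ex-TRM libraries lay above both tissue ex-Tcirc libraries for 5 (Itga1, Itgav, Itgae, Itgal and Itgb2), where 21.4% of genes with a mean of at least 1 FPKM did so. They lay below for 1 chain, Itga4, against 10.9% of genes. The nearest pair, tissue ex-TRM first, was close for Itga4 (37.6 against 38.0 FPKM) and for Itgae (1.70 against 1.58 FPKM). Among the 6 chains with a mean of at least 20 FPKM, the count above was 2 (Itgal and Itgb2), against 40.4% of genes at that level.

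Marker lists were read for the same tissue groups. Of 13 marker lists, 3 did not overlap between the origins, 2 with ex-TRM above and 1 with ex-TRM below. Among single genes with a mean of at least 1 FPKM, 21.4% lay above and 10.9% below in this way. The 7 B and plasma cell markers summed to 408 and 65.4 FPKM (tissue ex-Tcirc) against 20.9 and 53.6 FPKM (tissue ex-TRM), with Cd79a and Cd79b at 0 in all 4 libraries. Most of this sum was immunoglobulin, with Igkc at 281 and 41.4 against 12.1 and 32.5 FPKM and Ighm at 111 and 21.0 against 7.11 and 16.6 FPKM. The T cell markers ran the other way, from 1137 to 1438 FPKM in tissue ex-Tcirc and from 1522 to 1568 FPKM in tissue ex-TRM, and erythroid markers reached 3.10 FPKM in tissue ex-TRM and were at 0 in tissue ex-Tcirc. Per T cell marker FPKM, Itga1 was at 0.269% and 0.351% (tissue ex-Tcirc) against 0.691% and 1.03% (tissue ex-TRM), and Itgav at 1.01% and 1.39% against 1.74% and 1.95%, so the order held. Overlapping genes shared it too. Pelo, inside Itga1, had 0 and 4.90 against 6.87 and 7.84 FPKM, and Dnmt3l-ps1, which overlaps Itgav, had 3.71 and 7.12 against 12.6 and 10.7 FPKM. The part of these transcripts in the chain values was not tested.

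None of these differences passed the test over the 7 libraries. limma called 0 chains and 0% of all genes between the origins within tissue at either minimum. At the minimum of 20 FPKM, 7 of 2656 genes and 0 of 6 chains had an unadjusted limma p under 0.05. In simulated data at that minimum, the same test called 0% of genes changed by a log2 of 1 and 15.4% of those changed by 2. Without tissue ex-Tcirc replicate 2, Itgae was called at the minimum of 1 FPKM, at 1.64 ± 0.22 (limma adjusted p = 0.0449), beside 6.33% of genes called higher in ex-TRM. The tissue ex-Tcirc library then left lists Itgae at 0. For Itga1 the log2 difference was 1.50 ± 0.37 (limma unadjusted p = 0.0116, adjusted p = 1). Over the 4 tissue libraries alone it had an SE of 0.35 (limma unadjusted p = 0.0076, adjusted p = 0.944). Itgav had 0.86 ± 1.27 over 7 libraries and an SE of 0.31 over the 4 tissue libraries (limma unadjusted p = 0.0353, adjusted p = 0.488). Depth relative to tissue ex-TRM replicate 1 was estimated from the most frequent ratio of FPKM values over genes above 0. It could not be placed for tissue ex-Tcirc replicate 2 or for the circulating ex-Tcirc libraries. Circulating ex-TRM replicate 2 had 25.3% of the reference depth. Tissue ex-Tcirc replicate 1 had 24.1% and tissue ex-TRM replicate 2 had 90.1% of it. The part of this gap in the differences of low chains was not tested.

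The make-up of the alpha chain pool was compared within each library, where scaling of the library has no effect. Itga4 made 40.9% and 35.8% of the summed FPKM of the 5 alpha chains for tissue ex-Tcirc but 26.0% and 22.8% for tissue ex-TRM. In circulation its share was 42.6% in ex-Tcirc replicate 1, near the 40.9% of tissue ex-Tcirc replicate 1, and 54.2% in ex-TRM replicate 2. Its share of 100% in circulating ex-Tcirc replicate 2 reflects that the other 4 alpha chains were listed at 0. Itgal held 43.4% to 46.3% in the 4 tissue libraries. Its share was above these in circulating ex-Tcirc replicate 1, at 52.6%, and below them in circulating ex-TRM replicate 2, at 35.2%. Itgav held 12.4% and 15.4% (tissue ex-Tcirc), 18.8% and 19.5% (tissue ex-TRM), and 4.82% and 5.50% in the 2 circulating libraries in which it was listed. Itga1 held 3.30% and 3.88% (tissue ex-Tcirc), 7.47% and 10.3% (tissue ex-TRM) and 2.86% (circulating ex-TRM replicate 2).

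Among the 4 beta chains, Itgb7 was the largest share in every tissue library, at 37.4% to 49.5%. In circulating ex-Tcirc replicate 1 the largest share was that of Itgb2, at 41.5%, and in circulating ex-TRM replicate 2 that of Itgb1, at 42.2%. In circulating ex-Tcirc replicate 2 it was that of Itgb7, at 88.4%, with Itgb1 and Itgb2 listed at 0. Itgb1 made 15.8% to 22.6% in tissue and 27.1% in circulating ex-Tcirc replicate 1. These shares were not tested, and the circulating values rest on 1 library each.

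**Figure D4:**
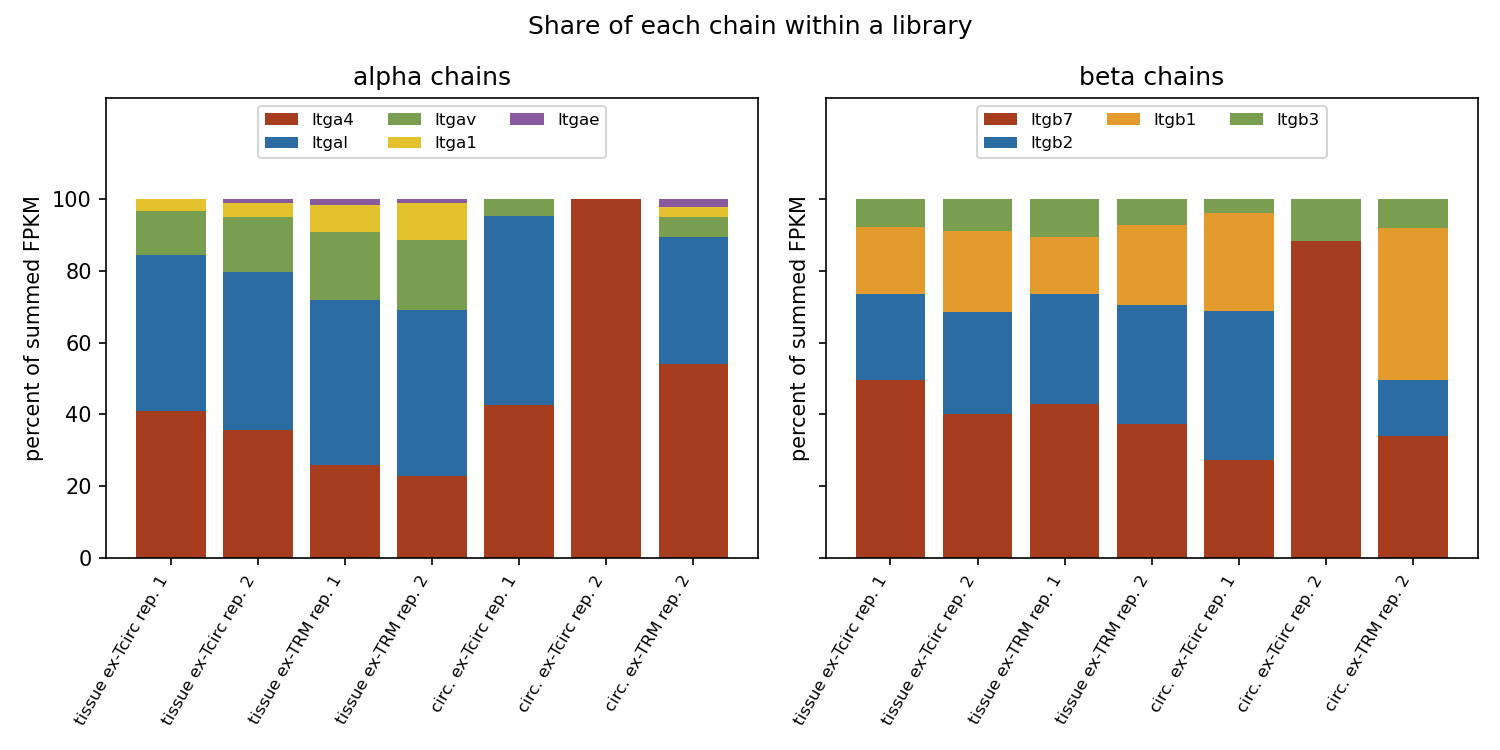
Percent of the summed FPKM of 5 alpha chains (left) and 4 beta chains (right) held by each chain (y axis), in each of the 7 libraries (x axis, circ. for circulating). Itga4 takes 22.8% to 40.9% of the alpha sum in tissue and 42.6% or more in circulation, and Itgb7 leads the beta sum in all tissue libraries.

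By mean level over the 4 tissue libraries, the order was Itgb7 (111 ± 11.2 FPKM, SD), Itgb2 (76.1 ± 13.0), Itgal (58.5 ± 13.4), Itgb1 (51.9 ± 8.88), Itga4 (39.2 ± 5.11), Itgb3 (22.8 ± 3.96), Itgav (22.1 ± 8.17), Itga1 (8.64 ± 5.71) and Itgae (1.46 ± 1.07). Itgb7 stood above all others in every tissue library. The means of Itgal and Itgb1, and those of Itgb3 and Itgav, were closer to each other than their SDs, so these neighbours are not ordered. The 17 integrin chains outside the set were at most at 8.78 FPKM in tissue and at 24.1 FPKM in circulation, the latter being Itga5 in circulating ex-Tcirc replicate 1. Of these 17 chains, 10 had a mean of at least 1 FPKM, 13 were listed at 0 for both circulating ex-Tcirc replicates and 1, Itgad, for all 7 libraries.

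A list of 70 other genes of integrin function was read in the same fits, with 17 further chains, 20 genes of activation from inside the cell, 18 of signalling and linkage to the cytoskeleton, and 15 ligands. At a mean of at least 20 FPKM, 19 of the 70 were tested, 12 of activation and 7 of signalling, and 2 of these 19 passed, 1 in each direction, beside 6.55% of all genes called higher and 0.791% called lower. Their median log2 difference was 0.85, against 0.43 over all genes tested. Of the 19, 11 were at 0 in circulating ex-Tcirc replicate 2.

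Ptk2b, the Pyk2 kinase that acts downstream of integrins, had FPKM values of 31.6 and 55.7 (tissue ex-Tcirc), 92.3 and 95.0 (tissue ex-TRM), 0 and 0 (circulating ex-Tcirc) and 54.7 (circulating ex-TRM replicate 2). Its log2 difference was 3.10 ± 0.35 (limma adjusted p = 0.0267). The call came from circulating ex-Tcirc, with 5.43 ± 0.45 (limma adjusted p = 0.0067). Within ex-TRM, with 1 circulating library, the difference was 0.77 ± 0.55. Both circulating ex-Tcirc values were listed at 0, and a pair of zeros adds no spread. In the band of its tissue mean, 60 to 120 FPKM, circulating ex-Tcirc replicates 1 and 2 listed 7.9% and 41.3% of genes at 0. Flna, filamin A, which links beta chain tails to actin and competes with talin, ranged from 62.4 to 90.8 FPKM over the 4 tissue libraries, and had 216 and 178 FPKM (circulating ex-Tcirc) and 197 FPKM (circulating ex-TRM replicate 2). It was lower in tissue by -1.32 ± 0.22 (limma adjusted p = 0.0471), and its locations did not overlap. Without any 1 of the 4 tissue libraries 0 genes of the list and 0% of all genes passed. Without circulating ex-Tcirc replicate 1, 16 of 19 passed, beside 69.5% of all genes, and without replicate 2, 4 of 20, beside 42.2%.

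Of the genes that switch integrins on, 0 of the 12 tested passed, with a median log2 difference of 0.74. Tln1, the talin that opens beta chains by binding their tails, stayed at 70.6 to 110 FPKM in all 7 libraries. Fermt3, the kindlin of blood cells, ranged from 31.3 to 42.7 FPKM in tissue, with 13.0 and 13.9 FPKM for circulating ex-Tcirc and 45.0 FPKM for circulating ex-TRM replicate 2. Rasgrp2, an activator of the small GTPase Rap1, ranged from 16.0 to 37.0 FPKM in tissue, with 51.6 and 0 FPKM for circulating ex-Tcirc and 135 FPKM for circulating ex-TRM replicate 2. Fyb, the adaptor ADAP, ranged from 168 to 252 FPKM in tissue and had 212, 497 and 316 FPKM in the circulating libraries. Fermt3 thus had its lowest values in circulating ex-Tcirc, and Rasgrp2 and Fyb had their highest in circulation.

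With the minimum lowered to 1 FPKM, 53 of the 70 genes were tested, 9 passed as higher in tissue and 1, Flna, as lower, beside 14.8% and 0.361% of all genes. The 9 were Cdh1, Crk, Icam1, Icam2, Itga3, Lims1, Parvg, Ptk2b and Sharpin, each listed at 0 for both circulating ex-Tcirc replicates. Except for Cdh1 and Itga3, they were listed in circulating ex-TRM replicate 2, with Icam1, the ligand of LFA-1, at 15.7 FPKM there and between 13.5 and 17.3 FPKM in tissue. Cdh1, the epithelial ligand of Itgae and a marker on the epithelial list, ranged from 5.11 to 9.92 FPKM in tissue and was listed at 0 in circulation.

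Genes whose log2(FPKM + 1) followed a chain most closely over the 7 libraries were taken from 2052 named genes, as a description over points that share library depth. For Itga4 the closest was Rps26-ps1 (Pearson r = 0.99), a ribosomal protein pseudogene that can share reads with its parent gene. For Itgb7 they were Nans (r = 0.98) and Fbxw7 (r = 0.98), and for Itgb3 Cap1 (r = 0.97) and Rps27rt (r = 0.93). For Itgb1 they were Crlf3 and Iqgap2 (r = 0.997 and 0.995). For Itgal they were Cd164 (r = 0.9996) and Vcp (r = 0.9995), and for Itgb2 Hdlbp and Poldip3 (r = 0.9995 for both). Those of Itgb1, Itgal and Itgb2 were all at 0 or under 1 FPKM in circulating ex-Tcirc replicate 2, the library that listed the 3 chains at 0.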

How the data were processed

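FPKM values, 1 per gene name and library, were made and deposited by the authors from strand-specific read pairs of sorted cells, per the file headers and the labels' protocols. Tools in the submitters' processing notes are StringTie 3.0.1, HISAT2 2.2.1, Trim Galore 0.6.7, HOMER 4.11, SAMtools 1.15 and MACS2 2.2.7.1, with build mm10. Neither the annotation nor the use of strand in counting is given in the sources used here. Read totals are unknown, so depth was judged from genes listed at 0 and from the most frequent ratio of values between libraries.

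Groups and replicate numbers came from sample titles, and rows of one gene name were summed. The 9 chains, the gene lists, the minimums and the omitted library were chosen with earlier results of these data known. Gene positions, promoters and overlapping genes are those of RefSeq on GRCm38.p6. limma 3.58.1 in R 4.3.3 fitted group means of log2(FPKM + 1) for 7 libraries with an intensity trend and Benjamini-Hochberg adjustment (threshold 0.05). Genes needed a mean FPKM of at least 20, or of at least 1 for Itgae, Itga1 and Itgav. Log2 differences on this scale understate changes of low genes, and those against a group at 0 depend on the pseudocount of 1. The fits were tested on simulated data. Changes of log2 1, 2 and 4 between locations were called for 3.33%, 32.3% and 65.2% of the genes given them. Between origins within tissue these shares were 0%, 15.4% and 40.9%. A chain that did not pass may therefore still differ. Named were all 9 chains, listed genes that passed or averaged at least 20 FPKM, and the 2 genes most correlated with each chain at that level, of which 1 is not reported here; other examples were chosen after their values were seen. Alternatives were a pseudocount of 0.1, minimums of 5, 1 and none, all 8 libraries, TPM, median-of-ratios factors, the highest value per name, the replicate block, library weights, only the groups compared and each library left out.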

Additional observations from a re-analysis of the deposited data

How the results depend on the processing

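Of 342 alternatives to the 21 values of single chains, 296 kept direction and side of the threshold. Of the others, 21 reversed direction, 18 gained a call and 7 lost one. Only the Itga1 values for location and within ex-Tcirc had passed, and they lost the call in 5 and 2 alternatives. For the remaining values, most of the 296 stayed uncalled in a test of low power, which does not show that they are stable. The location call of 0 chains became 1 with a pseudocount of 0.1 and 2 (Itga1 and Itga4) with minimums of 5, 1 and none. Within ex-Tcirc it became 2, 1 and 1 with those minimums, and within ex-TRM 1 with library weights. Over all genes, minimums of 5, 1 and none gave 2259, 3485 and 4345 calls for location (main 195), 2640, 5757 and 4981 within ex-Tcirc (main 242), and 2013, 2584 and 3165 for the difference between origins (main 4). No minimum gave 854 within ex-TRM and 584 between origins in tissue, each from 0, and a pseudocount of 0.1 gave 179 for the difference between origins. TPM gave 34 for location and 105 within ex-Tcirc, and median-of-ratios factors 69 for location and 0 for the difference between origins. All 8 libraries and library weights gave 0 in each of these 3, and weights 86 within ex-TRM. Only the 4 ex-Tcirc libraries gave 0. TPM moved the median log2 location difference of all genes from 0.43 to 0.06 and median-of-ratios factors to 0.63. Itga4 then had -1.76 and -1.36.

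Deviations of libraries with the same replicate number were close to uncorrelated between groups, with correlations of 0.01, -0.09 and -0.04. A single pair of libraries per group cannot show whether these libraries share an animal or experiment. The replicate block gave 0 calls for location and for the difference between origins and 158 within ex-Tcirc. It also gave 0 for the chains under 20 FPKM (main 1), with Itga1 at an adjusted p of 0.0903 in limma, and 0 for other genes of integrin function (main 2). Under the block Itgb1 had -0.47 and Itgae 0.0020. The chains under 20 FPKM also gave 0 with all 8 libraries and with weights. Other genes of integrin function gave 9, 10 and 11 with minimums of 5, 1 and none, and 0 with all 8 libraries, TPM, median-of-ratios factors or weights.

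With all 8 libraries the location difference turned to 0.12 for Itga4, 1.01 for Itgb7, 0.68 for Itgb3 and 0.54 for Itgae, and within ex-TRM to 1.84 for Itga4, 1.76 for Itgb1 and 2.99 for Itgb7; the added library lists all chains at 0. Itgb1 had -0.14 as TPM, and Itgae 0.47 with a pseudocount of 0.1 and 0.073 with median-of-ratios factors. With each library left out, chains called ran from 0 to 6 for location and within ex-Tcirc, 0 to 1 within ex-TRM, 0 to 0 between origins (0 to 1 at a minimum of 1 FPKM, where Itgae passed without tissue ex-Tcirc replicate 2) and 0 to 4 for their difference. All genes called ran from 0 to 1860, 0 to 1969, 0 to 60, 0 to 0 and 0 to 1704 in the same order, with 0 for location without any of the tissue libraries. Chains under 20 FPKM gave 0 to 2, and other genes of integrin function 0 to 16. Ranges were -1.69 to 1.77 for Itgb1, -0.73 to 3.04 for Itgb2, -0.69 to 2.80 for Itgal, -0.42 to 0.26 for Itgae, and -0.27 to 0.41 for the difference between origins of Itga4. Without circulating ex-TRM replicate 2 only ex-Tcirc and tissue comparisons could be fitted. Beyond fewer or more genes or libraries, the cause was not tested. Depth limits every value listed at 0. Itga4, Itgb7 and Itgb3, the chains above 0 in circulating ex-Tcirc replicate 2, all had higher values there than in replicate 1. The part of depth in these values was not tested.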
